A study of Mus musculus with 11 samples.

Results

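The genes described here are 29 genes of GABA-releasing interneurons and of the synapses they form, chosen by symbol from 46202 rows of gene expression in mouse hippocampus. They cover GABA synthesis and vesicle loading (3 genes), homeobox factors (5), peptides and calcium-binding proteins (6), other genes used to mark interneurons (3), GABA-A receptor subunits (9), and both GABA-B receptor subunits with the adhesion protein Nlgn2 (3). All 29 symbols were found, and 28 were tested. Dlx6 had too low a signal, with no value in 3 of the 11 libraries.

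RNA sequencing was carried out on hippocampus of single-housed male C3-C57B1/6J mice, 2 to 3 months old, after saline, or insulin at 2.4 IU a nostril, was delivered to the nose. The control group has 3 libraries, called saline in their titles and untreated at 0 min in their other labels. Insulin groups have 2 libraries at 15 min (replicates 1 and 3), 3 at 1 h and 3 at 6 h. The labels name no mutation or transgene, and all mice were anaesthetised with isoflurane before the brain was taken. No saline group at 15 min, 1 h or 6 h was analysed here, so insulin and the time since delivery cannot be told apart.

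GABA is the main inhibitory transmitter of the adult brain. In the hippocampus it is released by interneurons, which are a minority of the neurons and fall into classes known by a peptide (Sst, Vip, Cck, Npy) or a calcium-binding protein (Pvalb, Calb2). It opens chloride channels, the GABA-A receptors, which are built from alpha, beta and gamma or delta subunits, and it also acts through the GABA-B receptor, which is coupled to G proteins. Most interneuron genes here are used in a small share of the cells, whereas the receptor subunits are used widely in principal neurons too. In RNA from whole tissue, fewer cells of a type and less RNA per cell cannot be told apart.

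Values are log2 signals, normalised by the authors. Whether they were divided by gene length is not given in the sources used here. A gene is therefore compared between libraries, and no level is read as above another gene's. Where SDs are set against rows of like signal, like signal may not be like abundance. The number of reads behind each library is unknown. Markers of hippocampal neurons had a value in all 11 libraries. Prox1 and C1ql2, of dentate granule neurons, ran from 0.13 to 1.10 and from 1.39 to 2.41. Fibcd1 and Wfs1, of CA1 pyramidal neurons, ran from -2.32 to -1.09 and from -0.60 to 0.22. Signal of other tissue differed between libraries: the summed linear signal of 6 choroid plexus genes ran from 1.20 to 132. The labels give 3 animals for each time without tying a library to an animal. Each p-value sets a difference between group means against the spread between libraries, which may not be that between animals.

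No gene of the set passed the threshold in any comparison (limma, Benjamini-Hochberg adjusted p of 0.05 over all rows tested). At 15 min after insulin, 0 of 28 genes passed against saline, where 0.239% of all rows did. At 1 h it was 0 of 28, where 0.877% of all rows did, 36 of them higher and 207 lower. At 6 h it was 0 of 28, and 0% of all rows passed. An F test over the 4 groups also gave 0 of 28, with 0.365% of all rows passing. At an unadjusted p of 0.05 the genes numbered 1, 1, 2 and 1 in these 4 tests, against 15.1%, 15.7%, 6.98% and 14.4% of all rows.

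At 15 min the median log2 change of the 28 genes was 0.12, against 0.05 at 1 h and 0.09 at 6 h. The medians over all rows were -0.14, -0.11 and -0.04. Of the 28 genes 19, 17 and 17 were higher than in saline at the 3 times, against 31.3%, 33.2% and 43.0% of all rows. All libraries of a time lay outside the saline range for 6 genes at 15 min, 5 at 1 h and 3 at 6 h, whereas 38.4%, 28.1% and 13.2% of all rows with complete values did so. In none of the 3 comparisons did the set hold a larger share of such genes than the whole table.

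**Figure D1:**
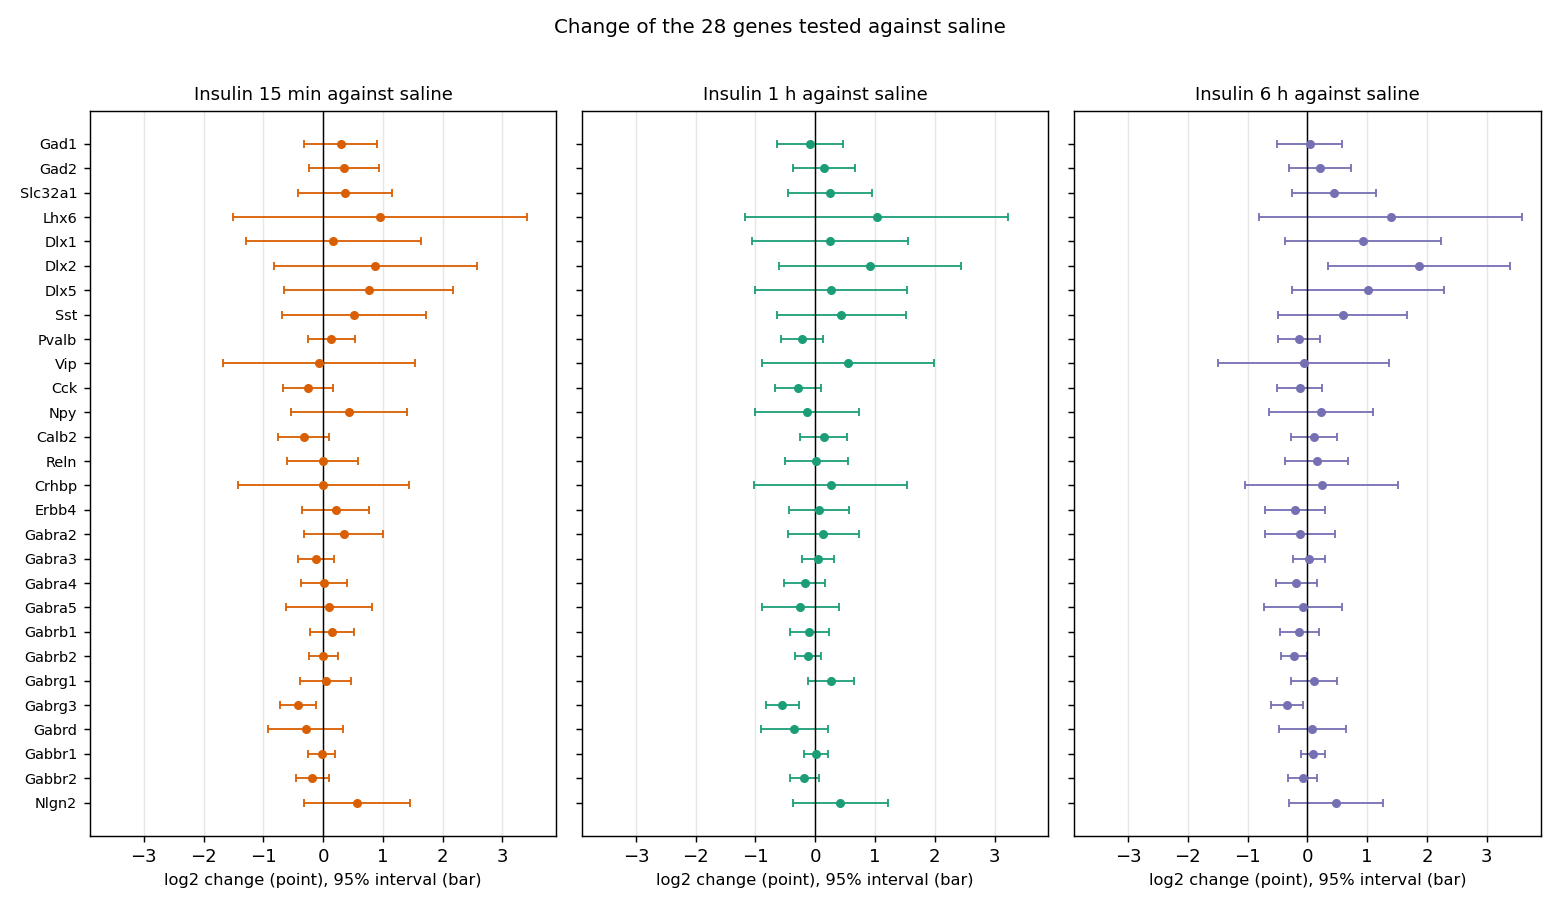
Log2 change against saline of the 28 genes tested (points) with 95% intervals from the fit (bars) at 15 min, 1 h and 6 h, the genes grouped by role from GABA synthesis at the top to Nlgn2 at the bottom. The intervals of Gabrg3 lie below 0 in all 3 panels before adjustment over all rows, and those of Lhx6, Dlx2 and Vip are among the widest.

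The intervals show the precision of these libraries. A change of 2-fold in either direction lay outside the 95% interval for 17 of 28 genes at 15 min, 19 at 1 h and 18 at 6 h. For 9 genes (Sst, Vip, Npy, Lhx6, Dlx1, Dlx2, Dlx5, Crhbp and Nlgn2) the interval at every time reached past a 2-fold change in at least 1 direction. For Sst, Dlx2 and Nlgn2 that direction was upward alone at all 3 times. The narrowest standard error was that of Gabbr1, 0.089 at 1 h and at 6 h, and the widest that of Lhx6, 1.10 at 15 min.

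GABA synthesis and loading come first. Gad1 and Gad2 encode the enzymes that make GABA from glutamate, and Slc32a1 the transporter that fills synaptic vesicles with it. Gad2 read 0.62, 0.58 and 1.04 in saline replicates 1 to 3. It read 0.77 and 1.44 at 15 min, 0.57, 0.80 and 1.32 at 1 h, and 0.65, 1.14 and 1.09 at 6 h. The groups overlapped, and the highest library was replicate 3 in saline, at 15 min and at 1 h. Its change was 0.35 (SE 0.26) at 15 min, 0.15 (SE 0.24) at 1 h and 0.21 (SE 0.24) at 6 h, with adjusted p of 0.55, 0.81 and 0.82 (limma).

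Slc32a1 read 2.66, 2.49 and 2.75 in saline and 2.80 and 3.21 at 15 min. It read 2.43, 2.96 and 3.27 at 1 h and 2.36, 3.76 and 3.13 at 6 h. Both libraries at 15 min stood above the saline range, and at 1 h and 6 h the groups overlapped. The change at 15 min was 0.37 (SE 0.35, adjusted p = 0.65, limma). Gad1 differed from saline by 0.29, -0.09 and 0.04 at the 3 times, and the value at 1 h turned to 0.05 after median centring.

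The homeobox factors direct the formation of interneurons in the embryo: Dlx genes act in precursors of the ganglionic eminences, and Lhx6 in those of the medial eminence, which give rise to the Sst and Pvalb classes. All 4 tested (Dlx1, Dlx2, Dlx5 and Lhx6) were higher than saline at each time, by medians of 0.82, 0.59 and 1.20, and none passed the test. Under cyclic loess and median centring all kept that sign. Without the third 15 min library Lhx6, Dlx1 and Dlx5 were lower than saline at 15 min (-0.26, -0.63 and -0.07). At 1 h Dlx1 and Dlx5 were lower without the third 1 h library (-0.10 and -0.14), and Dlx1 also without the first (-0.06). Over all alternatives the sign of Dlx1 turned in 4 at 15 min and 2 at 1 h. Dlx2 read -3.94, -4.46 and -3.56 in saline, -3.88 and -2.34 at 15 min, and -2.91, -4.15 and -2.15 at 1 h. At 6 h it read -3.39, -0.87 and -2.11, so that all 3 libraries were above saline. The change at 6 h was 1.86 (SE 0.68), or 3.64-fold, with an unadjusted p of 0.021 and an adjusted p of 0.70 (limma). It was 1.24 without the second 6 h library, which was the highest.

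Dlx5 read -3.72, -3.48 and -2.98 in saline, -3.47 and -1.80 at 15 min, and -2.66, -4.40 and -2.33 at 1 h. The 6 h values were -2.93, -2.26 and -1.94. The 6 h libraries were all above saline, by 1.01 on average (SE 0.57, adjusted p = 0.72, limma), while the 1 h libraries lay on both sides. The range of Lhx6 was -5.55 to -3.79 for saline, -5.09 to -2.67 for 15 min, -5.51 to -2.26 for 1 h and -5.13 to -2.54 for 6 h. These ranges overlap, although libraries of each insulin group lay above the saline range, and the mean at 6 h was higher by 1.39 (SE 0.99). Over all alternatives the 6 h change lay between 0.59 and 1.29 for Dlx5 and between 0.59 and 2.24 for Lhx6.

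Neighbouring genes of the Dlx family share a place in the genome. In the RefSeq annotation of GRCm38.p6, Dlx1 and Dlx2 lie 9.4 kb apart on chromosome 2, and Dlx6 and Dlx5 9.8 kb apart on chromosome 6. Antisense genes overlap Dlx1 (Dlx1as), Dlx6 (Dlx6os1 and Dlx6os2) and Gad1 (Gad1os). The kit is stranded, but whether the counting used strand is not given in the sources used here, so the values of Dlx1, Dlx6 and Gad1 may include antisense reads.

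Among peptides and calcium-binding proteins, 3 of 6 were higher and 3 lower than saline at each time, and none passed the test. Median centring turned the sign of Vip at 15 min and of Npy at 1 h. Sst, the peptide somatostatin, marks interneurons that target dendrites. It read 3.14, 3.04 and 4.11 in saline and 3.42 and 4.49 at 15 min. It read 3.80, 3.10 and 4.70 at 1 h and 3.23, 4.47 and 4.37 at 6 h. Every group held a low and a high library more than 1 log2 unit apart. The mean was higher by 0.52, 0.44 and 0.59 at the 3 times, with adjusted p of 0.68, 0.72 and 0.77 (limma). Without the third 15 min library the Sst change at 15 min was -0.02, and without the third 1 h library that at 1 h was 0.02.

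Promoter windows of Sst and Gad2 are shown next, because these genes were ordered alike between libraries, and that of Gabrg3, because it had the smallest p of the set. Each is the 250 bases before a transcript start, 5′ to 3′ on the gene's strand, from RefSeq on GRCm38.p6. Sst lies at chr16:23890845-23891094 on the minus strand, Gad2 at chr2:22622077-22622326 on the plus strand, and Gabrg3 at chr7:57387216-57387465 on the minus strand. Capitals mark the cAMP response element TGACGTCA.
Sst: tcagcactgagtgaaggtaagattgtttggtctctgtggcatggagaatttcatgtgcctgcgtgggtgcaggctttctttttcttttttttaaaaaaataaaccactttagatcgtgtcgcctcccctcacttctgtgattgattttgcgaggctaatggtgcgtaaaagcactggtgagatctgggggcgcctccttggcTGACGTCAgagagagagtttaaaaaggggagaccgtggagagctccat
Gad2: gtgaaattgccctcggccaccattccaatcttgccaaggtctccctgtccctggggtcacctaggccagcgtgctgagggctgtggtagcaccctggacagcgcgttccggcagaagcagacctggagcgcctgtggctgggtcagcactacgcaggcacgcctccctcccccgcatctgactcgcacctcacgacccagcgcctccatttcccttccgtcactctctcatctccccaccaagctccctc
Gabrg3: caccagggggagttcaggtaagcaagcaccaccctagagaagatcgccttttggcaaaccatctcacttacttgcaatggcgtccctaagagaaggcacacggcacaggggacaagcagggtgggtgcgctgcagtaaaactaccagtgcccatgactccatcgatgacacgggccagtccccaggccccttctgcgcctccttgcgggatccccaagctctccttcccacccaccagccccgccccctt

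In the Sst window the element begins 48 bases before the start. The 8 letters, which read the same on both strands, were found in 1.55% of 32851 such windows. Of 25 genes of the set with a window, Sst alone held it. The windows of Gad2 and Gabrg3 are richer in G and C (64.0% and 60.4%) than that of Sst (47.2%). A homeodomain core, TAATTA, was searched on both strands and found in 4.84% of all windows and, within the set, in Gabrg1 alone. The FOXO core GTAAACA was in 3.17% of windows and, within the set, in Cck alone. A match is a description of the letters and not of a bound site.

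Pvalb, a calcium buffer of fast-spiking basket cells, read 1.03, 1.33 and 1.36 in saline and 1.57 and 1.19 at 15 min. It read 0.82, 0.95 and 1.30 at 1 h and 1.06, 1.30 and 0.93 at 6 h. The groups overlapped, with changes of 0.14, -0.22 and -0.14. The F test over the 4 groups gave an adjusted p of 0.59 (limma).

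Calb2, or calretinin, read 1.18, 1.45 and 1.12 in saline, 1.15 and 0.69 at 15 min, 1.70, 1.44 and 1.03 at 1 h, and 1.28, 1.46 and 1.34 at 6 h. Its largest differences were between insulin times. The 6 h libraries were higher than those at 15 min by 0.44 (SE 0.19, adjusted p = 0.34, limma), with no overlap. These groups did not overlap for 3 of 28 genes of the set and 29.5% of complete rows. In this comparison 0 of 28 genes and 0.00723% of all rows passed. At 1 h Calb2 was higher than at 15 min by 0.47 (SE 0.19), with an unadjusted p of 0.037 (limma). In that comparison 0 of 28 genes and 0% of all rows passed. Between 6 h and 1 h, 0 of 28 genes passed, with 0.0108% of all rows passing.

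The peptide Cck is made by basket cells and also by pyramidal neurons. It read 3.50, 3.56 and 3.26 in saline, and 3.24 and 3.14 at 15 min, both just below the saline range. The change was -0.25 at 15 min (SE 0.19, adjusted p = 0.55, limma), -0.29 at 1 h and -0.13 at 6 h. Vip, a peptide of interneurons that inhibit other interneurons, ran from -3.96 to -2.35 in saline and from -4.31 to -1.74 over the insulin libraries. Npy ran from -1.78 to -0.92 in saline and from -2.38 to -0.66 after insulin. Neither Vip nor Npy had a group outside the saline range.

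Reln, a secreted glycoprotein, Crhbp, which binds corticotropin-releasing hormone, and Erbb4, the neuregulin receptor of interneurons, overlapped with saline at every time. At 15 min the changes of these genes lay between -0.01 and 0.21, at 1 h between 0.02 and 0.26, and at 6 h between -0.21 and 0.24. In each of them replicate 3 was the highest library of all 4 groups.

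Of the GABA-A receptor subunits 6 of 9 were higher at 15 min, and 3 of 9 at 1 h and 6 h, and none passed the test. Of all rows 31.3%, 33.2% and 43.0% were higher at 15 min, 1 h and 6 h. The median change of the 9 subunits minus that of all rows was 0.15, -0.01 and -0.08. Median centring turned the sign of Gabra3 at 15 min and of Gabrb1 and Gabrb2 at 1 h. Gabrg3, which encodes a gamma subunit, came closest. It read -1.27, -1.38 and -1.09 in saline, and -1.75 and -1.59 at 15 min. It read -1.99, -1.65 and -1.75 at 1 h and -1.62, -1.53 and -1.61 at 6 h. All 8 insulin libraries were below all 3 saline libraries. No other gene of the set had all insulin libraries on one side of saline; over the complete rows of the table, 4.21% had them all below and 0.718% all above.

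The log2 change of Gabrg3 was -0.42 (SE 0.14) at 15 min, with an unadjusted p of 0.011 and an adjusted p of 0.21 (limma). At 1 h it was -0.55 (SE 0.12), or 1.46-fold lower, with an unadjusted p of 0.0011 and an adjusted p of 0.072. Its change at 6 h was -0.34 (SE 0.12), with an unadjusted p of 0.019 and an adjusted p of 0.70. The 3 comparisons share the saline libraries. The F test gave an adjusted p of 0.19. Relative to the median of all rows the changes were -0.29, -0.44 and -0.30.

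Gabrg3 is a long gene of 671 kb (chr7:56716463-57387215, GRCm38.p6), 20.5 kb from Gabra5. Of 7 tested genes of the set that span over 200 kb, 4 were lower than saline at 15 min, 4 at 1 h and 5 at 6 h. Of the other 21, 5, 7 and 6 were lower. The median changes were -0.01, -0.10 and -0.14 for the long genes and 0.17, 0.15 and 0.11 for the others. Over all rows of the table the medians were -0.14, -0.11 and -0.04, and 31.3%, 33.2% and 43.0% of rows were higher than saline. The part of gene length in these values was not tested.

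Gabrb2, a beta subunit, read 1.70, 1.60 and 1.60 in saline and 1.61 and 1.66 at 15 min. It read 1.53, 1.54 and 1.48 at 1 h and 1.61, 1.17 and 1.47 at 6 h. The 3 libraries at 1 h lay below saline by a small margin, with a change of -0.12 (SE 0.10, adjusted p = 0.61, limma). At 6 h the change was -0.22 (SE 0.10, adjusted p = 0.71), and -0.10 without the second library, the lowest of that group.

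Gabrd, the delta subunit of receptors outside the synapse, is typical of dentate granule and thalamic relay neurons. It read 1.87, 1.91 and 1.27 in saline, 1.68 and 1.10 at 15 min, 1.66, 1.05 and 1.29 at 1 h, and 2.19, 1.66 and 1.44 at 6 h. The groups overlapped, and the changes were -0.29, -0.35 and 0.08 (adjusted p 0.65, 0.55 and 0.94, limma). Cfap74 overlaps Gabrd in the annotation, so reads of the 2 genes may be mixed.

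The other 6 subunits (Gabra2, Gabra3, Gabra4, Gabra5, Gabrb1 and Gabrg1) differed from saline by between -0.25 and 0.34 over the 3 times. Both 15 min libraries of Gabra3 were below saline, by 0.11 on average. All 1 h libraries of Gabrg1 were above saline, by 0.27 on average (SE 0.17, adjusted p = 0.50, limma). Gabrg1, Gabra2, Gabra4 and Gabrb1 form a cluster on chromosome 5, where Gabra4 and Gabrb1 overlap by 388 bp. The 4 clustered genes did not share a direction at 1 h: Gabrg1 and Gabra2 were higher, and Gabra4 and Gabrb1 lower, the last being higher by 0.04 after median centring.

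The GABA-B receptor works only as a pair of Gabbr1, which binds GABA, and Gabbr2, which couples to the G protein. Gabbr1 was the steadiest gene of the set, between 3.91 and 4.20 in all 11 libraries, with changes of -0.03, 0.01 and 0.10. Gabbr2 read 0.01, -0.10 and -0.21 in saline, -0.34 and -0.22 at 15 min, -0.23, -0.29 and -0.33 at 1 h, and -0.20, 0.03 and -0.37 at 6 h. At 15 min and 1 h every library was below saline, by 0.18 on average at both times (adjusted p 0.51 and 0.45, limma), and at 6 h the groups overlapped. Relative to the median of all rows the Gabbr2 changes at 15 min and 1 h were -0.04 and -0.08, and after median centring they were -0.0076 and -0.045.

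Nlgn2, the neuroligin of inhibitory synapses, read 1.46, 1.46 and 1.48 in saline. It read 1.65 and 2.43 at 15 min, 1.77, 1.79 and 2.12 at 1 h, and 1.22, 2.91 and 1.71 at 6 h. The saline libraries were nearly equal, and all 15 min and 1 h libraries stood above them, while the 6 h libraries were spread on both sides. The changes were 0.57 (SE 0.40), 0.42 (SE 0.36) and 0.48 (SE 0.36), with adjusted p of 0.53, 0.62 and 0.75 (limma). The spread in the test is shared by all groups, and the 6 h group was the most variable. Without its second library the 6 h change was -0.00068.

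**Figure D2:**
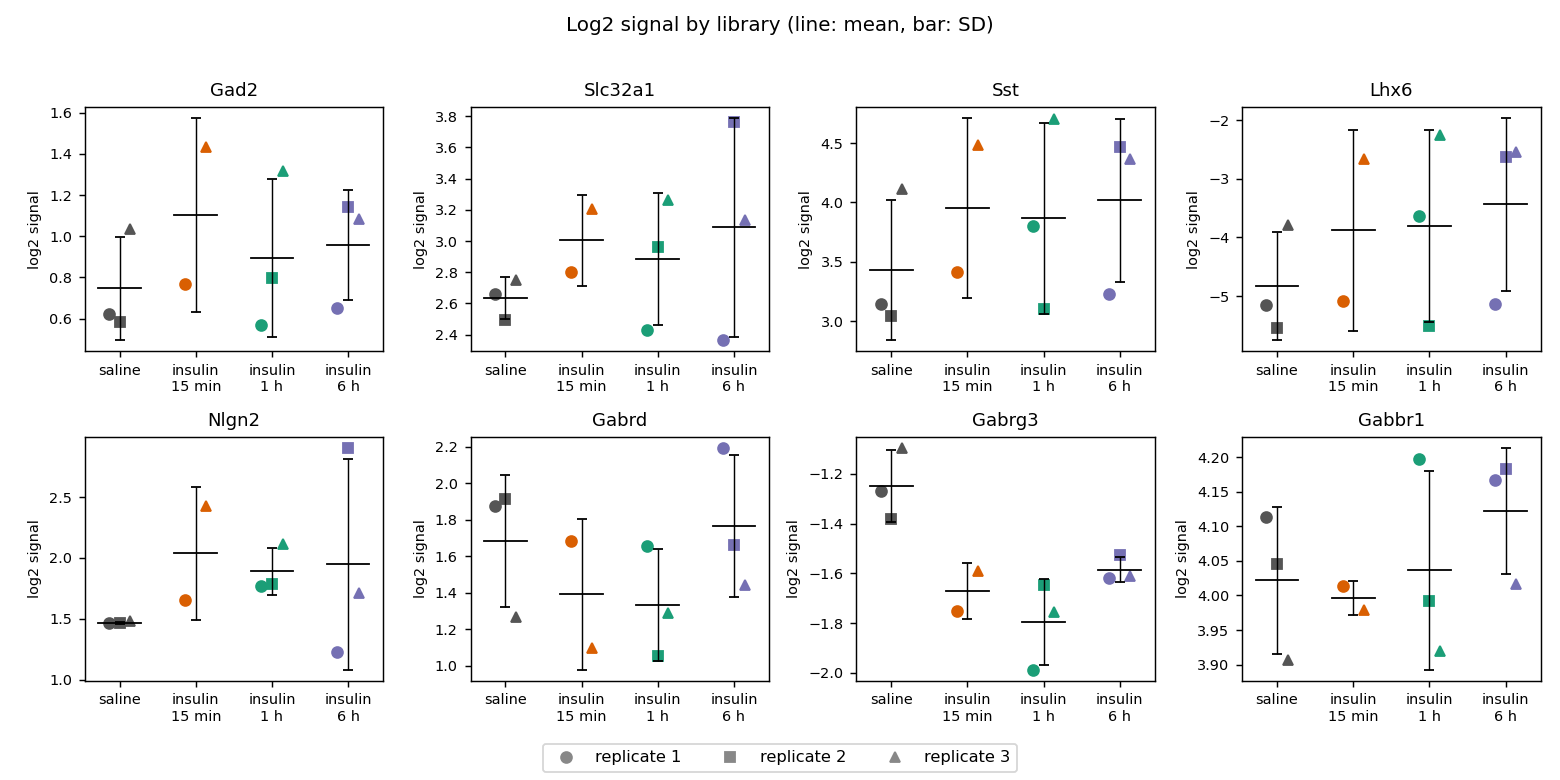
Log2 signal (vertical axes, each with its own range) of 8 genes in each library by group, with circles, squares and triangles for replicates 1, 2 and 3, a line at the group mean and a bar of 1 SD. Triangles are the highest in saline, at 15 min and at 1 h for Gad2, Slc32a1, Sst and Nlgn2 and in all groups for Lhx6, and the lowest in all groups for Gabbr1, and all insulin points of Gabrg3 lie below saline.

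Libraries of the same group differed from each other in a way that many genes of the set shared. The SD within groups was 1.43 for Lhx6, 0.99 for Dlx2, 0.93 for Vip, 0.85 for Dlx1 and 0.71 for Sst, against 0.11 for Gabbr1, 0.12 for Gabrb2 and 0.13 for Gabrg3. Set against rows of like mean log2 signal (within 0.5 log2 units), 14 of 28 genes had an SD above that of 90% of such rows. Lhx6 exceeded 99.5% of them, Dlx1 99.2%, Sst 98.9% and Nlgn2 98.0%. The 5 genes below the median of such rows were all receptor subunits: Gabra3, Gabrb2, Gabrg3, Gabbr1 and Gabbr2.

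The order of libraries within a group was then compared with that of Gad2 over the 10 pairs of libraries of the same group, a measure chosen after the values were seen. Gad1, Slc32a1 and Nlgn2 were ordered as Gad2 in 10 of 10 pairs. Only the sign of a difference was counted, and the saline libraries of Nlgn2 spanned no more than 0.016 log2 units. Sst, Dlx1, Dlx2, Reln, Erbb4, Gabrb1 and Gabrg3 were in 9. At least 9 pairs were ordered as in Gad2 for 10 of the 27 other genes (37.0%), against 9.63% of 25771 complete rows. At the other end were Cck and Gabra4 with 1 pair, Gabrd with 2, and Calb2 and Gabbr1 with 3. At most 1 pair was ordered as in Gad2 for 2 of the 27 genes (7.41%), near the 5.94% of complete rows. These are descriptions of 11 libraries, in which the pairs of a group share libraries.

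Replicate 3 held the highest library in all 4 groups for 9 of 28 genes: Vip, Npy, Lhx6, Dlx5, Reln, Crhbp, Erbb4, Gabra2 and Gabra5. That is 32.1%, against 7.02% of complete rows. It held the lowest in all 4 groups for Gabbr1 alone, or 3.57%, against 1.91% of rows. In the 6 h group the second library stood above replicate 3 for Gad1, Gad2, Slc32a1, Sst, Dlx1, Dlx2 and Nlgn2. The first 6 h library was the lowest of its group for each of these genes.

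**Figure D3:**
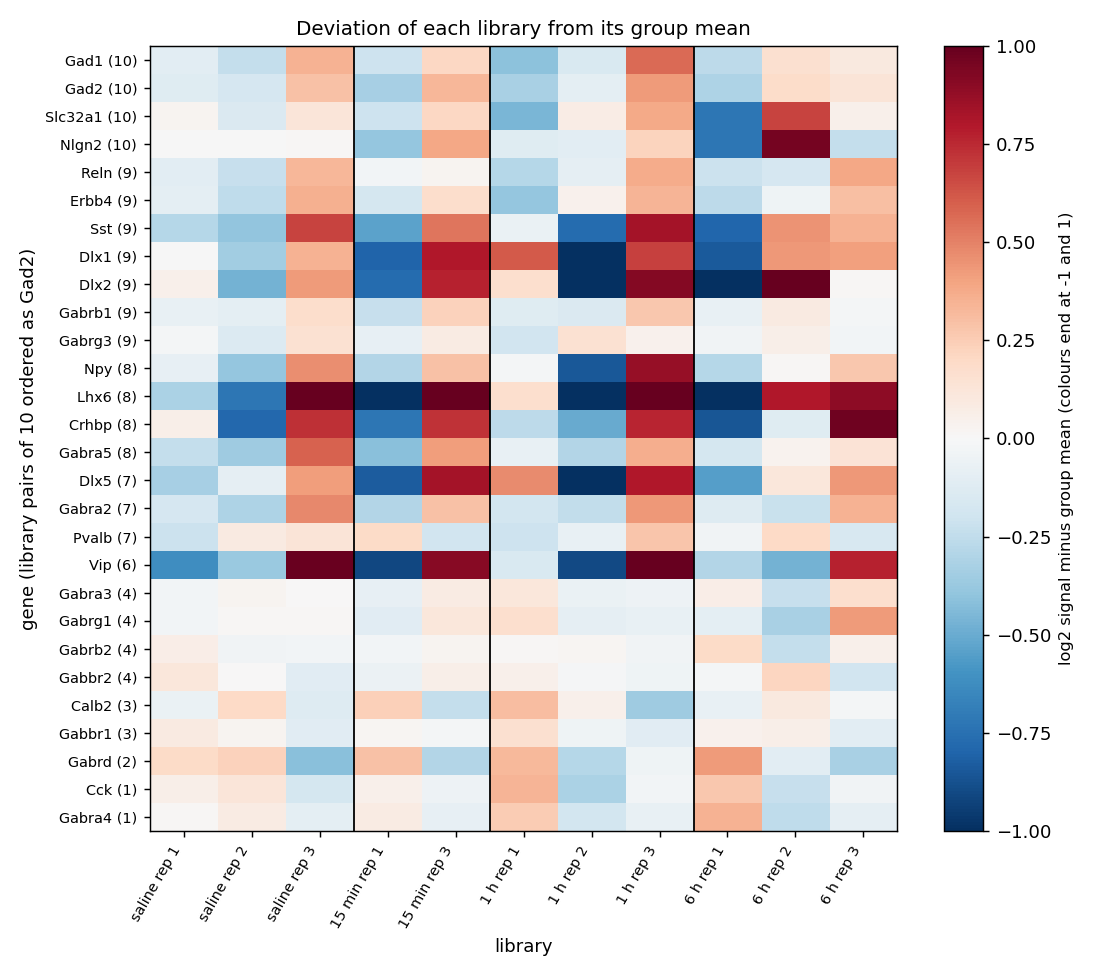
Log2 signal of 28 genes (rows) in 11 libraries (columns) minus the mean of the library's group, in red where above and blue where below, with colours ending at -1 and 1 and genes sorted by how many of 10 library pairs were ordered as in Gad2 (in brackets). Replicate 3 columns are mostly red in the upper rows, and Gabrd, Cck and Gabra4 at the bottom have mostly the opposite colours.

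The same count was taken for marker lists, where 9.63% of complete rows had at least 9 pairs ordered as in Gad2. Lists of 4 to 11 genes are too short to tell a count of 0 or 1 from that share. At least 9 pairs were ordered as in Gad2 for 4 of 11 striatal, 3 of 7 pyramidal neuron, 2 of 6 oligodendrocyte and 2 of 7 astrocyte genes. The count was 1 of 8 neocortical, 1 of 7 general neuronal, 0 of 7 dentate granule, 0 of 4 Cajal-Retzius and 0 of 6 thalamic genes. It was 0 of 5 microglial, 0 of 7 endothelial and pericyte, and 0 of 6 choroid plexus genes. Of 11 striatal genes none passed the test at any time, but their median change was 0.57, 0.54 and 0.54. Highest in replicate 3 of all 4 groups were 5 of 11, against 7.02% of complete rows. The summed linear signal of the list was 9.74 to 12.9 over the saline libraries, 16.6 to 19.6 over those at 15 min, 9.72 to 28.1 for 1 h and 10.3 to 18.6 for 6 h. No defining marker was absent: Drd1 read -0.93, -0.56 and 0.32 in saline, 0.21, -0.24 and 1.71 at 1 h, and was highest in replicate 3 of each group. Adora2a ran from -4.51 to -1.55, with the highest library again the third at 1 h.

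Lowest in replicate 3 of all 4 groups were 2 of 6 thalamic and habenular genes, against 1.91% of complete rows. None of the 6 passed, and all 6 were lower than saline at 15 min and 1 h. Most rows of the table were also lower, with 31.3% higher at 15 min and 33.2% at 1 h. The median change of the 6 genes minus that of all rows was -0.18 and -0.25 at these times. Their summed linear signal was 17.4 to 23.8 for saline, 15.4 to 20.4 for 15 min, 15.5 to 21.8 for 1 h and 18.7 to 26.3 for 6 h. The summed signal of the 7 pyramidal neuron genes was 4.76 to 9.18 for saline, 7.22 to 14.9 for 15 min, 6.42 to 11.2 for 1 h and 5.13 to 11.1 for 6 h. Prkcd and Slc17a6 of the thalamic list had a value in all 11 libraries. The part of neighbouring tissue in the spread of the interneuron genes was not tested.

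**Figure D4:**
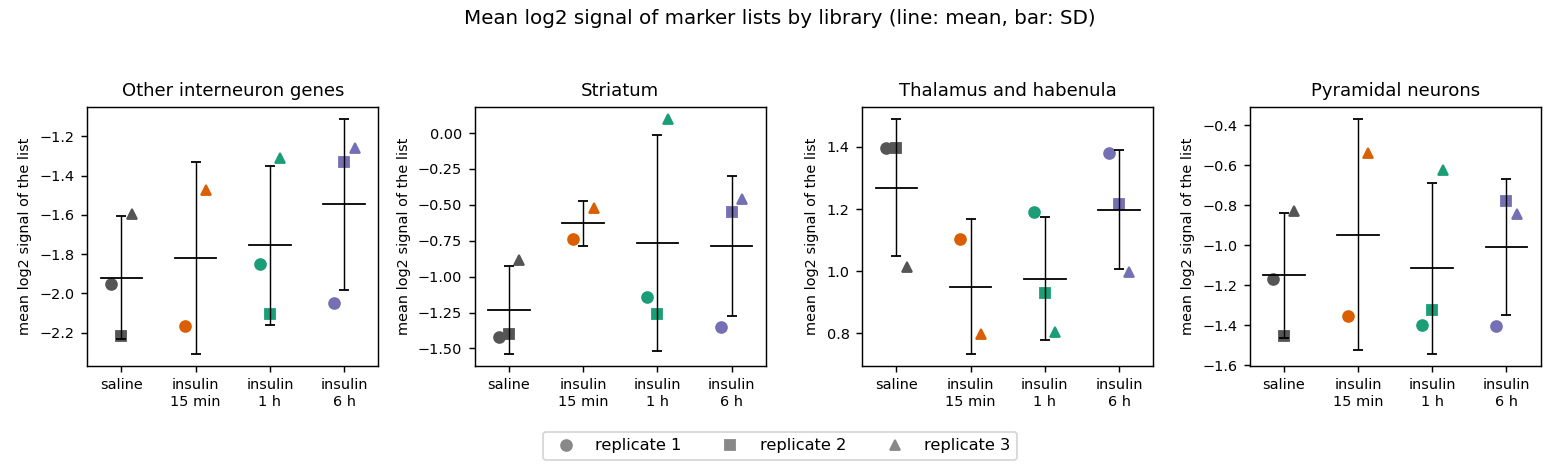
Mean log2 signal of 4 lists of marker genes (vertical axes, each with its own range) in each library by group, with circles, squares and triangles for replicates 1, 2 and 3, a line at the group mean and a bar of 1 SD. Triangles are the highest point of every group for interneuron and striatal genes and the lowest for thalamic genes.

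Leaving out the 4 replicate 3 libraries, which was chosen after the order was seen, left 0 of 28 genes past the threshold in every comparison, and 0 of all rows. The 15 min group then had 1 library, assumed to vary like the other groups. In that fit Sst differed from saline by 0.32, 0.36 and 0.76, Lhx6 by 0.26, 0.77 and 1.46, and Dlx2 by 0.31, 0.67 and 2.07. Gabrg3 remained lower than saline at all 3 times in every alternative tried.

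Other interneuron genes, which are not in the set, gave a like picture. Of 22 tested, 0 rose at any time and 1 fell, at 1 h. Of all rows 0.877% passed at 1 h, 36 of them higher and 207 lower. The 1 that fell was Adarb2, an RNA-binding protein of interneurons from the caudal eminence. Its values were 0.59, 0.35 and 0.64 in saline and -0.10, -0.06 and -0.16 at 1 h, a change of -0.63 (SE 0.11, adjusted p = 0.028, limma). It read 0.24 and 0.07 at 15 min and 0.36, 0.16 and 0.04 at 6 h. The call at 1 h was lost after cyclic loess (adjusted p = 0.056) and after centring each library on its median (adjusted p = 0.094). It was also lost without the first or the third saline library and without each of the 3 libraries at 1 h (adjusted p from 0.071 to 0.14). Of the 22 genes 9, among them Lamp5, Cort and Htr3a, were highest in replicate 3 of all 4 groups, against 7.02% of complete rows.

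Of 30 other genes of GABA metabolism, transport and the inhibitory synapse, 28 were in the table and tested. None rose, and 1 fell, at 15 min and at 1 h. Of all rows 0.239% passed at 15 min, 12 of them higher and 54 lower. At 1 h it was 0.877%, 36 of them higher and 207 lower. The median change of the 28 was -0.0011, -0.0033 and 0.064 at the 3 times. The gene that fell was Gphn, gephyrin, which anchors GABA-A and glycine receptors under the synapse. It read 5.32, 4.06 and 4.25 in saline and 0.93 and 1.40 at 15 min. It read 0.66, 0.89 and 0.48 at 1 h and 2.71, 1.00 and 1.95 at 6 h.

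All insulin libraries of Gphn were below saline. The change was -3.38 (SE 0.47, adjusted p = 0.026, limma) at 15 min and -3.87 (SE 0.42, adjusted p = 0.0038) at 1 h, or 14.6-fold lower. The change at 6 h was -2.65 (SE 0.42) with an adjusted p of 0.22. The call at 15 min was lost with only the 2 groups in the fit (adjusted p = 0.096) and in 6 of 11 fits that left out 1 library. It was lost without each of the 3 saline libraries, each of the 2 at 15 min, and the first at 1 h (adjusted p from 0.053 to 0.17).

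A row outside the pathway moved with Gphn. The 18S ribosomal RNA row Rn18s-rs5 read 16.00, 13.05 and 13.79 in saline, 9.67 and 10.49 at 15 min, 10.18, 10.51 and 10.22 at 1 h, and 12.19, 11.65 and 11.04 at 6 h. The first saline library was the highest of all 11 in Gphn and Rn18s-rs5. In Gabrg3 the first saline library lay between the others. The group means of Gabrg3 in saline, at 15 min, 1 h and 6 h were -1.25, -1.67, -1.80 and -1.59. Those of Gphn were 4.54, 1.16, 0.68 and 1.89, so both genes were highest in saline and lowest at 1 h. Means of Rn18s-rs5 were 14.3, 10.1, 10.3 and 11.6. The part of ribosomal RNA in the values of Gphn and Gabrg3 was not tested.

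Transporters that set the chloride gradient, on which the effect of GABA rests, were on the same list and did not pass the test. Slc12a5, which exports chloride, ran from 2.18 to 2.42 in saline and from 2.25 to 3.08 over the insulin libraries. Slc12a2, which imports it, ran from 1.17 to 1.65 in saline and from 1.08 to 1.58 after insulin. Abat, the enzyme that breaks GABA down, read 1.57 in all 3 saline libraries and ran from 1.33 to 1.58 after insulin.

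A single rise was called over the marker lists: Nr4a2, a nuclear receptor on the neocortex list that is also induced by neuronal activity. It read -1.52, -1.46 and -1.35 in saline and -0.49, -0.12 and -0.48 at 1 h. At 1 h 0.877% of all rows passed, 36 of them higher. The change of Nr4a2 was 1.08 (SE 0.18, adjusted p = 0.025, limma) at 1 h and 0.06 at 6 h. The call was lost without each of the 3 saline libraries and without the first or the second library at 1 h (adjusted p from 0.084 to 0.12).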

How the data were processed

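Hippocampal RNA of 11 mouse libraries was sequenced with a stranded total RNA kit, per the labels' protocols. The authors deposited log2 signals per gene symbol. Whether these are quantile-normalised between libraries was not tested. Over complete rows, the lowest library median was -2.09 (15 min, replicate 3) and the highest -1.83 (6 h, replicate 3). A missing value was kept as missing. Per the submitters' processing notes, the tools were bcl2fastq and Partek 6.7 and the build GRCm38; which aligner, counter and gene models were used is not given in the sources used here. Reads cannot be recovered, so the depth is unknown and no counting interval is given.

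Rows in the lowest 40% by mean were left out, which kept 27721 rows. A linear model of the 4 groups was fitted to all 11 libraries in R 4.3.3 with limma 3.58.1 (empirical Bayes with a trend, two-sided), adjusted by Benjamini-Hochberg at 0.05 over all rows tested in a comparison. Folds were taken as 2 to the power of the log2 change. Summed signals of lists are sums of 2 raised to the log2 signal. The fit was tested on simulated data. The 29 genes and all lists were chosen with earlier results of these data known. All 29 were to be reported, with every library for those past the threshold and the 8 of smallest F-test p. From other lists, up to 4 past the threshold against saline were named. A further result of these lists is not reported here. Values of Gad2, Slc32a1, Sst, Cck, Nlgn2 and Gabbr1, and of non-member genes that did not pass, were added after they were seen.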

Additional observations from a re-analysis of the deposited data

How the results depend on the processing

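No gene of the set passed the threshold under any of 22 alternatives (21 for the F test): other filters on low signal, cyclic loess, centring on the median, an offset, missing values at the lowest value, no trend, robust shrinkage, the 2 groups alone, a replicate block, each library left out, and the 4 replicate 3 libraries left out, the last added after seeing the data. Over all rows the number passing ran from 0 to 114 at 15 min (66 in the report) and from 0 to 331 at 1 h (243), and with 1 library left out from 5 to 103 and from 42 to 477. At 6 h it ran from 0 to 6. With the replicate number as a block it was 38 at 15 min, 159 at 1 h, 0 at 6 h, 0 between the insulin times and 40 for the F test. The numbers were not taken to pair the libraries: of 15 pairs with the same number, 7 had a correlation of deviations over 0.1 (range -0.056 to 0.24), and 6 of 11 libraries correlated best with their own number.

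The sign of the change, though not called, was the same under every alternative for 13 of 28 genes at 15 min, 13 at 1 h and 17 at 6 h. The median of the genes minus that of all rows was 0.25 at 15 min, and 0.60 without the first 15 min library, 0.074 without the third, 0.49 without the third saline library, 0.15 with the block and 0.12 without the replicate 3 libraries. At 1 h it was 0.16, and 0.0046 without the third 1 h library. The change of Gabrg3 at 1 h lay between -0.62 and -0.41, its adjusted p between 0.050 and 0.47. Without the replicate 3 libraries no call was left. The causes were not tested.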
